A study of Mus musculus with 9 samples.

Results

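RING finger proteins are one of the main classes of ubiquitin ligase, and in the mouse many of them carry the gene symbol Rnf followed by a number. All protein-coding genes with such a symbol in the GENCODE mouse annotation were taken, apart from 2 that the selection rule set aside, which gave 83 Rnf genes out of the 55401 genes in the count table. The rule is on gene symbol and gene type. The libraries came from testes of wild-type (WT) male mice, which the study kept as the outbred ICR stock, and no age or treatment was given for them. Poly(A) RNA was sequenced before precipitation (input, no antibody), after pulldown with a rabbit IgG control, or after pulldown with an antibody against N4-acetylcytidine (acRIP), with 3 libraries in each group. N4-acetylcytidine (ac4C) is an acetylated form of cytidine, and the comparison of acRIP with IgG and with input asks which mRNAs were enriched by the antibody. Whole testis mixes germ cells of many stages with somatic cells, and the labels do not say whether the 3 libraries of a group came from separate animals, so the p-values given here measure the spread between these libraries, which may be technical.

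A RING finger is a small zinc-binding fold of cysteines and histidines that holds an E2 ubiquitin-conjugating enzyme, loaded with ubiquitin by an E1 enzyme, next to a substrate. Most RING ligases pass ubiquitin straight from the E2 to the substrate, whereas RING-between-RING ligases first take it onto a cysteine of their own. Spermatogenesis relies on this system to exchange histones, to repair meiotic DNA breaks and to clear cytoplasm from spermatids, and several Rnf genes are transcribed mainly in the testis.

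The libraries held between 14647542 and 31340090 counts on genes, and the Rnf genes together took between 0.636% and 0.683% of them. Between 81.9% and 84.3% of the counts from 1 to 20 were even numbers, a pattern that arises where each mate of a pair adds a count, so low counts may stand for fewer fragments. Genes with at least 1 count numbered 28552 to 29642 in the input libraries, 26204 to 26874 in IgG and 22206 to 22402 in acRIP. The germ cell markers (10 genes) had a summed level of 26543 to 34725 FPKM (counts scaled by gene length and by library total) over all libraries, and the Sertoli, Leydig and peritubular markers were detected in every group. Prm1, Prm2, Tnp1 and Tnp2 made up most of the germ cell sum, with input means of 8938, 8462, 3532 and 6832 FPKM. Means of Odf1 were 159.5 FPKM in input, 811.5 in IgG and 1047 in acRIP, and those of Ddx4 were 266.5, 167.2 and 116.4. Of the 10 germ cell markers, 1 (Odf1) was called higher and 1 (Ddx4) lower in acRIP than in input. Summed blood and immune markers (5 genes) ranged from 12.2 to 12.4 FPKM in input, from 10.8 to 12.1 in IgG and from 1.30 to 2.05 in acRIP. Most of that sum was Alas2, with a mean of 8.19 FPKM in input and 0.829 in acRIP. Ptprc went the other way, from 0.0735 to 0.228 FPKM. By the count test described below, 4 of the 5 genes were lower and 1 (Ptprc) higher in acRIP than in input. Epididymis markers (4 genes) did not exceed 2.76 FPKM in any library. The part of these differences in the values of the Rnf genes was not tested.

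The most abundant Rnf mRNAs were those of testis genes and of general ligases. Mean input levels were at least 100 FPKM for 6 genes, from 10 to 100 for 26, from 1 to 10 for 23, below 1 for 25, and 0 for 3. Rnf151, a testis gene, was highest, with 517, 493 and 469 FPKM in the input libraries (493 ± 23.9, SD, n = 3), 460 ± 6.88 in IgG and 427 ± 22.7 in acRIP. It was followed in input by Rnf133 (296 ± 14.3 FPKM), a membrane-anchored ligase of late germ cells, and by Rnf7 (207 ± 7.81 FPKM), the RING subunit of a cullin ligase. Rnf138, which acts in the repair of DNA breaks, had 154 ± 3.08 FPKM, and Rnf148, a second testis gene of the Rnf133 type, had 130 ± 3.66 FPKM. Rnf32 (106 ± 2.08 FPKM), Rnf19a (90.2 ± 4.57 FPKM) and Rnf125 (59.1 ± 4.03 FPKM) completed the 8 highest. None of these 8 genes changed by more than 2-fold in either direction between acRIP and IgG, between acRIP and input, or between IgG and input. In bulk tissue, fewer cells of a type and less RNA per cell cannot be told apart, so these levels say nothing of which cells held the mRNA.

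**Figure D1:**
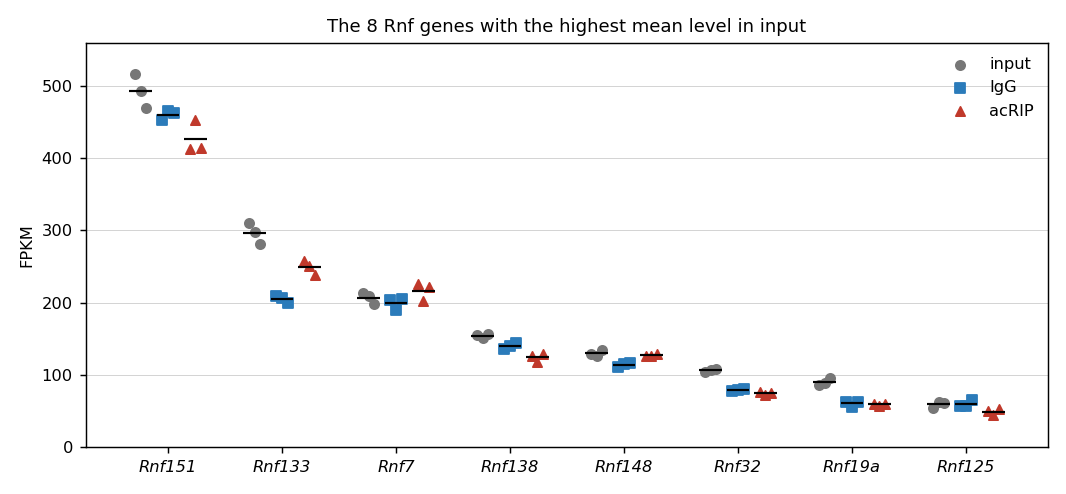
FPKM (y axis, linear) of the 8 Rnf genes with the highest mean input level, with 1 point per library (circles input, squares IgG, triangles acRIP; 3 each) and a bar at each group mean. Rnf151 had a mean of 493 FPKM in input and 427 FPKM in acRIP, and in no gene did the group means differ by more than 2-fold.

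For the comparisons, counts were fitted with edgeR over all genes that passed its filter on low counts (22510 genes, 74 of them Rnf genes), and a gene was called when its Benjamini-Hochberg adjusted p was under 0.05 and its fold change over 2. The enriched genes come first. Rnf183, Rnf217, Rnf130 and Rnf213 were higher in acRIP than in both IgG and input, which is 4 of the 74 tested Rnf genes (5.41%) beside 7.88% of all genes tested and 5.88% of the tested protein-coding genes. The 4 do not share a role: Rnf183 is a membrane-anchored ligase of the endomembrane system, Rnf217 a RING-between-RING ligase known for the turnover of the iron exporter ferroportin, Rnf130 a ligase with a protease-associated domain in the secretory pathway, and Rnf213 a very large ATPase and ligase linked to moyamoya disease. All 4 were of low abundance before precipitation, with mean input levels of at most 1.06 FPKM and ranks of 55 to 74 among the 83 genes.

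Rnf183 (chr4:62427540-62435252, minus strand, GRCm38) had the largest rise of any tested Rnf gene against either control. It had 8, 6 and 2 counts in the input libraries, 0, 10 and 2 in IgG, and 66, 48 and 90 in acRIP. Every acRIP library lay above all 6 control libraries, and the controls themselves were close to the lower limit of detection. The log2 fold change was 4.16 ± 0.61 (SE) against IgG (edgeR, adjusted p = 7.53e-07) and 4.29 ± 0.59 against input (adjusted p = 1.25e-07), or 17.9-fold and 19.6-fold. Rnf183 passed the filter on low counts through its acRIP libraries alone, so these p-values are not independent of its entry to the test. With so few control counts the size was loosely set: without the second IgG library, which held 10 of the 12 IgG counts, the log2 fold change over IgG was 5.98. Without the first IgG library, which held none, the value was 3.66. IgG and input did not differ detectably at this depth (0.13 ± 0.76, adjusted p = 0.9).

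Rnf183 is also the Rnf gene for which the study designed a primer pair for quantitative PCR, and both primers are given here because they fix the stretch of the mRNA that such an assay reads. The study names Rnf183 among its moderately acetylated testis mRNAs. It reports binding of this class by the RNA-binding protein TDP43, read by quantitative PCR after TDP43 immunoprecipitation. The study also reports quantitative PCR after acRIP, in which testis mRNAs of its acetylated and non-acetylated classes differed in level of acetylation. In the sense primer the cytidines, the bases that ac4C replaces, are in capitals, and in the antisense primer the guanines that pair with mRNA cytidines are in capitals.
Rnf183-F: CCCCaaagtgCtagaCtgCtg
Rnf183-R: GGGctGGtccttGaGacaG
Each primer matched the GRCm38 chromosomes at 1 place, the first at chr4:62428462-62428482 and the second at chr4:62428248-62428266. Both matches lie in exon 4 of 4 and inside the coding sequence of 573 bases, and they bound a stretch of 235 bases. No window of 100 bases of the Rnf183 transcript was found elsewhere on the placed chromosomes, the share being 0.

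Rnf217 (chr10:31493193-31609184, minus strand) was the second gene by size of the rise. It had 30, 28 and 24 counts in input, 18, 54 and 52 in IgG, and 278, 258 and 291 in acRIP, so the acRIP libraries stood well above all controls. The log2 fold change was 2.83 ± 0.24 relative to IgG (adjusted p = 1.94e-11) and 3.96 ± 0.25 relative to input (adjusted p = 4.47e-15). IgG was itself called above input (1.13 ± 0.29, adjusted p = 0.0013), but libraries of these groups overlapped, and the call was lost without the second or without the third IgG library (lowest value 0.95).

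Rnf130 (chr11:50025346-50125719, plus strand, by the coordinates of the count table, which differ here from the annotation used for names) had 270, 210 and 177 counts in input, 332, 309 and 277 in IgG, and 756, 784 and 758 in acRIP. Its 3 groups did not overlap and rose in that order. The log2 fold change was 1.37 ± 0.12 over IgG (adjusted p = 4.53e-11), 2.44 ± 0.13 over input (adjusted p = 1.7e-17) and 1.07 ± 0.13 for IgG over input (adjusted p = 2.38e-08), the last of which fell to 0.89, under the limit of 2-fold, without the first IgG library.

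Rnf213 (chr11:119393100-119487418, plus strand) was the least firm of the 4. It had 141, 106 and 112 counts in input, 73, 109 and 118 in IgG, and 184, 196 and 226 in acRIP, with no overlap of acRIP and the controls after scaling for depth. The log2 fold change was 1.09 ± 0.19 relative to IgG (adjusted p = 7.08e-06) and 1.38 ± 0.18 relative to input (adjusted p = 6.35e-08). Without the third acRIP library the value over IgG was 0.9997, just under the 2-fold limit, and the gene was then not called.

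A rule on the ratio of group means of FPKM + 1, over 2-fold with an unadjusted limma p under 0.05, was run beside the count test. By it 3 Rnf genes (Rnf183, Rnf217 and Rnf130) were higher in acRIP than in both controls, beside 1.97% of the 35699 genes with any count. The log2 value of Rnf183 over IgG was then 1.67.

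**Figure D2:**
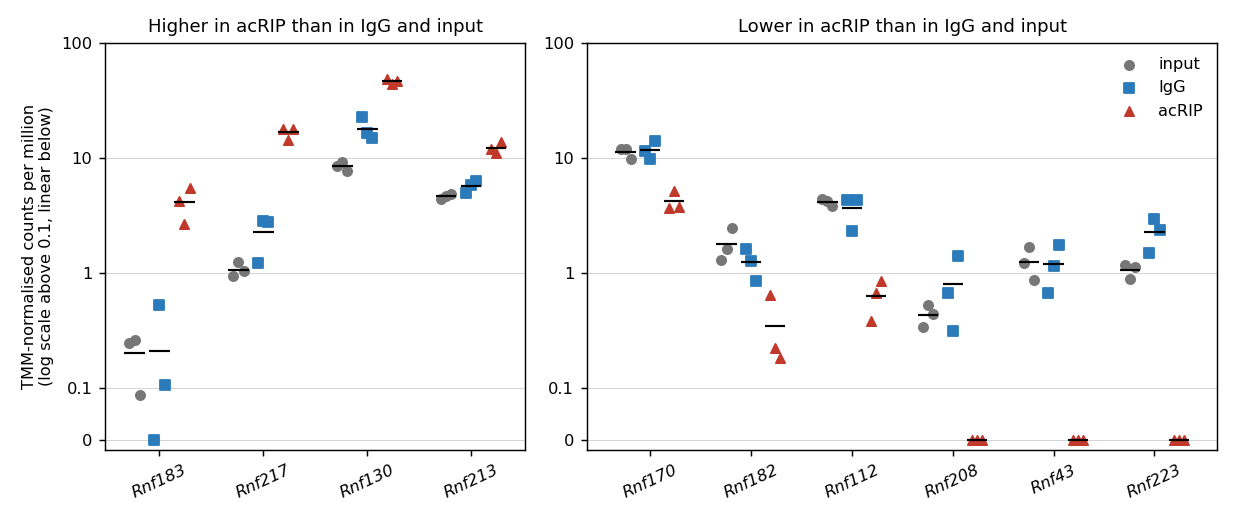
TMM-normalised CPM, counts scaled to library size (y axis, logarithmic above 0.1 and linear below) for the Rnf genes called in acRIP against both controls, 4 higher (left) and 6 lower (right). Points are libraries (circles input, squares IgG, triangles acRIP; 3 each) and bars are group means; the acRIP libraries of each gene lie apart from its 6 control libraries, and Rnf208, Rnf43 and Rnf223 are at 0 in all 3.

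Among the Rnf genes, as among all genes, more were lower than higher in acRIP against both controls by the count test. By the rule on FPKM + 1, 3 Rnf genes were higher and 0 lower, so that all 6 lower calls described here were lost. With 1 FPKM added, a gene under 1 FPKM in a control cannot reach a 2-fold fall from it, even at 0 in acRIP. Rnf43, Rnf208, Rnf223 and Rnf182 had means under 1 FPKM in both controls, and Rnf112 in IgG (0.936 FPKM). For these genes the rule could not give a lower call against both controls, so their loss says nothing of the count test. Rnf112, Rnf170, Rnf182, Rnf208, Rnf223 and Rnf43 were lower in acRIP than in both IgG and input, 6 of 74 (8.11%) beside 17.0% of all genes tested and 16.1% of the tested protein-coding genes. These were scarce mRNAs too, with mean input levels of 0.197 to 1.85 FPKM and no more than 379 counts in any control library. The fall in the number of detected genes from input to acRIP, given above, ran the same way, since the Rnf genes at 0 counts numbered 3 to 4 in the input libraries, 5 to 8 in IgG and 10 to 12 in acRIP. The part of that fall in these 6 calls was not tested.

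Rnf43, a membrane ligase that removes Wnt receptors from the cell surface, had 39, 38 and 20 counts in input, 10, 22 and 33 in IgG, and none in acRIP. Set against a floor of 3 counts in each acRIP library, acRIP lay at least 6.66-fold below IgG (edgeR, adjusted p = 2.93e-06) and at least 6.95-fold below input (adjusted p = 1.36e-06). Rnf223 had 38, 20 and 26 counts in input and 22, 56 and 44 in IgG, and acRIP lay at least 12.6-fold below IgG (adjusted p = 3.64e-08) and at least 5.91-fold below input (adjusted p = 7.98e-07).
Rnf208 was nearer to the limit of detection, with 11, 12 and 10 counts in input and 10, 6 and 26 in IgG. Here acRIP lay at least 4.40-fold below IgG (adjusted p = 7.77e-05), a bound of 2.75-fold without the third IgG library, and at least 2.42-fold below input (adjusted p = 0.000542). With a floor of 6 counts, which would hold where a single fragment adds a count per mate, the bounds against IgG and input were 3.33 and 3.47 for Rnf43, 6.28 and 2.95 for Rnf223, and 2.20 and 1.21 for Rnf208, the last of these under 2-fold. All 3 genes were thus undetected in acRIP rather than shown to be absent from it. With no acRIP counts, they passed the filter on low counts through control libraries alone, so their p-values are not independent of their entry to the test.

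The other 3 were reduced but still detected. Rnf112, a GTPase with a RING finger best known from the brain, had 140, 96 and 87 counts in input, 64, 44 and 80 in IgG, and 6, 12 and 14 in acRIP (log2 fold change -2.50 ± 0.37 against IgG, with an adjusted p of 7.17e-07, and -2.69 ± 0.36 against input, with an adjusted p of 7.45e-08). Rnf170, a ligase of the endoplasmic reticulum that degrades inositol trisphosphate receptors, had 379, 273 and 224 counts in input, 168, 185 and 259 in IgG, and 57, 92 and 62 in acRIP. Its log2 fold change was -1.47 ± 0.19 relative to IgG (adjusted p = 8.72e-08) and -1.42 ± 0.19 relative to input (adjusted p = 6.9e-08). For Rnf170 the counting is uncertain, because 44.6% of the windows of 100 bases in its longest coding transcript were also found elsewhere on the chromosomes, the highest share among the 83 genes.
Rnf182, a membrane ligase with a short coding sequence like that of Rnf183, had 42, 37 and 56 counts in input, 24, 24 and 16 in IgG, and 10, 4 and 3 in acRIP. Its log2 fold change was -1.84 ± 0.57 relative to IgG (adjusted p = 0.00588) and -2.36 ± 0.55 relative to input (adjusted p = 0.000331). Without the first acRIP library these became -2.57 and -3.09, and without the third -1.53 and -2.05. The call against IgG was lost in a test against 2-fold.

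Since ac4C forms on cytidines, the most cytidine-rich coding stretch of 30 bases within 1 exon was taken from the longest coding transcript of genes called in both comparisons, with cytidines in capitals, to set enriched beside depleted mRNAs.
Rnf183, higher in acRIP: CCCCagCCaggCgCCgCttgCtCtgCCCaC
Rnf217, higher in acRIP: CCCgCCagCCCgCCgCCCtCCttCCCCagC
Rnf130, higher in acRIP: CCCggCCgCggCaCCCCgCtCaCgttCCgC
Rnf213, higher in acRIP: CCCCagaCaCtgttCtCCgCCtCCtCCtCC
Rnf112, lower in acRIP: CaCCgtCCCtCCCCaaCCCgggagCCgCCC
Rnf43, lower in acRIP: CCCtCagaaCCCCtgCCaaCCtCtCtgCCC
Rnf182, lower in acRIP: gCttCCCttgtCagCCCttCCCaCaCgtCC
In GRCm38 they lie at chr4:62428388-62428417 (minus strand, exon 4 of 4), chr10:31608648-31608677 (minus, exon 1 of 6), chr11:50025536-50025565 (plus, exon 1 of 9), chr11:119434940-119434969 (plus, exon 24 of 67), chr11:61452844-61452873 (minus, exon 4 of 14), chr11:87732055-87732084 (plus, exon 9 of 10) and chr13:43668320-43668349 (plus, exon 2 of 2). The 4 enriched mRNAs held 16, 20, 17 and 17 cytidines in these stretches and the 3 depleted ones 18, 17 and 15, so the ranges overlapped. The most cytidine-rich stretches of Rnf170, Rnf208 and Rnf223 are not shown, and held 14, 18 and 18 cytidines. The median over the 15496 tested protein-coding genes with a transcript was 15 cytidines, and that over the 74 Rnf genes was 16. Over whole transcripts the cytidine content ranged from 19.6% to 28.8% in the 4 enriched Rnf mRNAs and from 19.9% to 35.8% in the 6 depleted ones, beside a median of 24.6% in all tested Rnf genes and 24.6% in all tested coding genes.

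Against IgG alone, 6 Rnf genes were higher in acRIP (8.11% of those tested, beside 11.5% of all genes) and 8 were lower (10.8%, beside 20.9%). The median log2 fold change over IgG was -0.04 in the Rnf genes and -0.09 over all genes. Apart from the genes called in both comparisons, those higher were Rnf212b, which is needed for meiotic crossovers, and Rnf31, the catalytic subunit of the linear ubiquitin chain complex. Rnf212b had 292, 202 and 218 counts in input, 48, 75 and 60 in IgG, and 139, 146 and 179 in acRIP. In this gene the IgG libraries were the ones that stood apart: acRIP exceeded IgG (1.41 ± 0.20, adjusted p = 3.12e-07), IgG lay below input (-1.40 ± 0.19, adjusted p = 2.61e-07), and acRIP against input gave 0.02 ± 0.18 (adjusted p = 0.931).
Rnf31 was alike in form, with 244, 146 and 163 counts in input, 69, 78 and 76 in IgG, and 135, 167 and 148 in acRIP (1.07 ± 0.19 over IgG, adjusted p = 1.72e-05; 0.35 ± 0.18 over input, adjusted p = 0.0858).

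The further 2 genes lower than IgG were Rnf111 (Arkadia, a ligase that amplifies TGF-beta signalling) and Rnf215. Rnf111 had 230, 168 and 221 counts in input, 289, 329 and 359 in IgG, and 121, 141 and 99 in acRIP. Its acRIP libraries lay below IgG (-1.38 ± 0.16, adjusted p = 1.55e-08) and overlapped input (-0.16 ± 0.17, adjusted p = 0.393). Rnf215 had 26, 16 and 13 counts in input, 56, 72 and 38 in IgG, and 20, 10 and 17 in acRIP, with -1.75 ± 0.43 relative to IgG (adjusted p = 0.000754) and 0.44 ± 0.46 relative to input (adjusted p = 0.398). For both genes IgG was the highest of the 3 groups.

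Against input, 17 Rnf genes were higher in acRIP (23.0% of those tested, beside 17.7% of all genes and 16.0% of coding genes) and 10 were lower (13.5%, beside 22.9%). The median log2 fold change over input was 0.05 in the Rnf genes and -0.10 over all genes. The control pulldown gave a similar count, since 20 Rnf genes were higher in IgG than in input (of 74 tested, beside 13.5% of all genes and 13.1% of coding genes) and 3 were lower (4.05%, beside 7.22%). The comparisons over input share the input libraries, so values of the other comparisons are set beside those of the main genes that follow.

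Rnf187, a coactivator of the transcription factor AP-1, had the largest rise over input outside the genes called in both comparisons. It had 971, 738 and 725 counts in input, 3618, 4091 and 4186 in IgG, and 3668, 4359 and 3878 in acRIP. Its log2 fold change was 2.92 ± 0.06 for acRIP over input (adjusted p = 4.08e-29), 2.86 ± 0.06 for IgG over input (adjusted p = 5.75e-29) and 0.06 ± 0.05 for acRIP over IgG (adjusted p = 0.302). The libraries of both pulldowns thus overlapped each other and lay far above input.
Rnf149, a ligase of the same type as Rnf130, had 66, 59 and 59 counts in input, 205, 230 and 306 in IgG, and 250, 226 and 253 in acRIP, with 2.61 ± 0.18 for acRIP over input (adjusted p = 4.95e-14), 2.56 ± 0.18 for IgG over input (adjusted p = 1.18e-13) and 0.05 ± 0.16 for acRIP over IgG (adjusted p = 0.806). In Rnf149, 24.9% of the exon bases also belong to another gene. Rnf19b, a RING-between-RING ligase of natural killer cells, had 1803, 1281 and 1321 counts in input, 4231, 5409 and 5034 in IgG, and 4231, 4776 and 4683 in acRIP, with log2 fold changes of 2.27 ± 0.05, 2.30 ± 0.05 and -0.04 ± 0.04 in the same order (adjusted p = 6.12e-28, 3.51e-28 and 0.508).

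Rnf11, a small adaptor of other ubiquitin ligases, had 356, 302 and 283 counts in input, 686, 881 and 867 in IgG, and 861, 990 and 886 in acRIP. It was 2.16 ± 0.09 above input in acRIP (adjusted p = 4e-20) and 1.93 ± 0.09 above input in IgG (adjusted p = 1.17e-18), and acRIP over IgG was 0.24 ± 0.08 (adjusted p = 0.013), which is under 2-fold. Rnf152, a lysosomal ligase of the mTORC1 pathway, was measured on few counts, 26, 8 and 4 in input, 50, 54 and 48 in IgG, and 24, 40 and 39 in acRIP. Its log2 fold change was 2.12 ± 0.45 for acRIP over input (adjusted p = 0.000121) and 2.63 ± 0.45 for IgG over input (adjusted p = 8.29e-06), with -0.51 ± 0.40 for acRIP over IgG (adjusted p = 0.27). Rnf152 passed the filter on low counts through its pulldown libraries, so the p-values over input are not independent of its entry to the test. The values over input rose to 2.93 and 3.44 without the first input library, which held most of the input counts. They fell to 1.77 and 2.28 without the third. The other Rnf genes called above input in both pulldowns were Rnf139, Rnf157, Rnf166, Rnf145, Rnf26, Rnf10, Rnf20 and Rnf8, besides Rnf130 and Rnf217. Over IgG, acRIP was at 0.19 in Rnf139, -0.49 in Rnf166, -0.26 in Rnf145 and 0.37 in Rnf8, all within 2-fold. Rnf215 (2.18 ± 0.43, adjusted p = 6.29e-05), Rnf111, Rnf115, Rnf44 and Rnf223 were called above input in IgG alone, and whether the 2 pulldowns differed is given by acRIP over IgG, where Rnf215, Rnf111 and Rnf223 were lower and Rnf115 (-0.62) and Rnf44 (-0.34) stayed within 2-fold.

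Several of these calls were near the limits of 2-fold or of the adjusted p. Rnf26, a membrane ligase that positions endosomes, was called over input in acRIP (1.38 ± 0.62, adjusted p = 0.0451) and in IgG (1.54 ± 0.61, adjusted p = 0.0349), but both calls were lost without any 1 of the input libraries, among others, and 65.2% of its exon bases belong also to another gene. Rnf26 also passed the filter on low counts through its pulldown libraries alone, so these p-values are not independent of its entry to the test. The call of Rnf223 for IgG over input (1.09, adjusted p = 0.0489) was lost without any 1 of the input libraries and without the second or the third IgG library. Rnf20, a ligase for histone H2B, was 1.01 above input in IgG, a call lost without the second input library or the second IgG library (lowest value 0.94) and under upper quartile factors, library totals and no filter. In acRIP it was 1.43 above input and 0.42 above IgG. Rnf10 was 1.01 above input in acRIP, a call lost without the third input library (0.98), under upper quartile factors, library totals and a test against 2-fold, and on FPKM + 1 and FPKM + 0.1. For this gene IgG over input was 1.15 and acRIP over IgG -0.13. The call of Rnf130 for IgG over input was also lost under upper quartile factors.

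**Figure D3:**
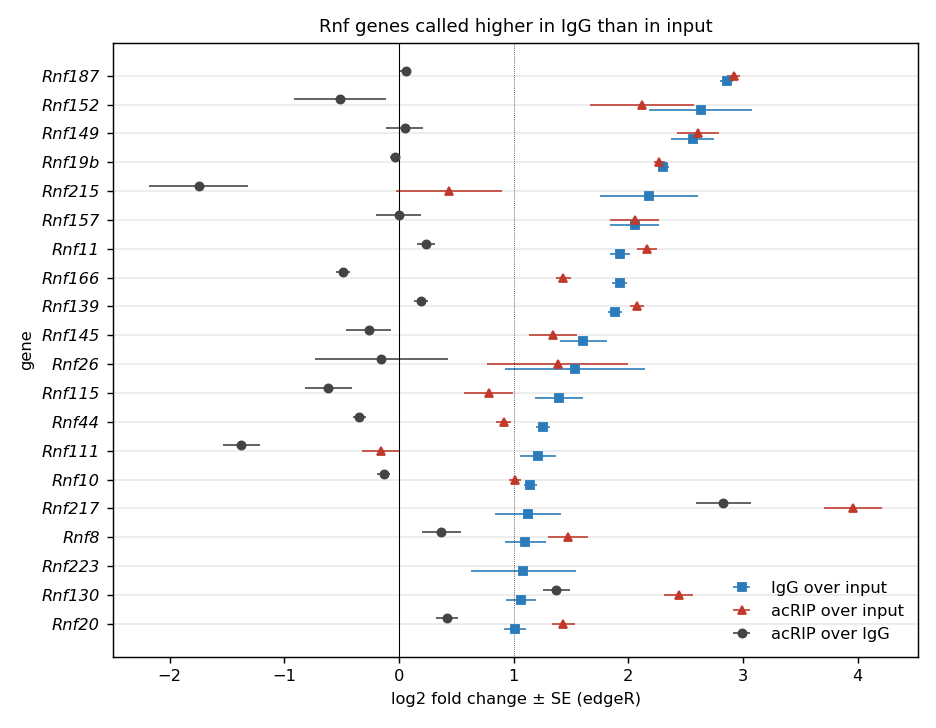
log2 fold change ± SE from edgeR (x axis) of the 20 Rnf genes called higher in IgG than in input (y axis), for IgG over input (squares), acRIP over input (triangles) and acRIP over IgG (circles). In Rnf187 the 2 values over input are 2.86 and 2.92 and the value of acRIP over IgG is 0.06, whereas in Rnf217 acRIP over IgG is 2.83; Rnf223 is drawn for IgG over input alone because its acRIP libraries held no counts.

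Below input, the largest difference among the Rnf genes not yet described was in Rnf222, with 33, 34 and 43 counts in input, 3, 7 and 8 in IgG, and 1, 0 and 7 in acRIP. It was lower in acRIP (-3.13 ± 0.75, adjusted p = 0.000438) and in IgG (-2.09 ± 0.67, adjusted p = 0.00965, not called without the third input library). Rnf222 passed the filter on low counts through its input libraries alone, so these p-values are not independent of its entry to the test. The acRIP value of Rnf222 was -5.34 without the third acRIP library and -2.52 without the second. Its acRIP and IgG libraries overlapped, and acRIP over IgG was -1.05 ± 0.85 (adjusted p = 0.288). Rnf123, a ligase that degrades the cell cycle inhibitor p27, was the firmest of this kind. It had 1240, 831 and 910 counts in input, 122, 210 and 241 in IgG, and 189, 177 and 143 in acRIP, so both pulldowns lay far below input (-1.91 ± 0.14 for acRIP, adjusted p = 5.35e-14, and -1.82 ± 0.13 for IgG, adjusted p = 1.95e-13) and overlapped each other.

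Rnf5 and Rnf146 were lower in acRIP than in input and lay between these groups in IgG. Rnf5, a ligase of the endoplasmic reticulum, had 265, 234 and 210 counts in input, 111, 161 and 86 in IgG, and 53, 69 and 50 in acRIP (-1.43 ± 0.22 over input, adjusted p = 1.06e-06). It was also below IgG (adjusted p = 0.000321), but by just under 2-fold, so it was not called. Rnf146, a ligase that recognises poly(ADP-ribose), had 827, 580 and 545 counts in input, 250, 358 and 339 in IgG, and 173, 201 and 151 in acRIP (-1.26 ± 0.12 over input, adjusted p = 1.1e-10). The strand setting of the counting is not given in the sources used here. Of the exon bases, 76.8% in Rnf146, 24.7% in Rnf5 and 18% in Rnf123 overlap genes of the opposite strand. The counts of Rnf146, Rnf5 and Rnf123 may therefore hold reads of those genes.

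By role, calls against IgG were spread over the groups of Rnf genes. Of the 13 tested membrane-anchored genes without a protease-associated domain, 1 was higher (Rnf183) and 2 were lower (Rnf170 and Rnf182) in acRIP than in IgG, with a median log2 fold change of -0.34. Of the 8 tested genes with a protease-associated domain, Rnf130 was higher and Rnf43 lower than IgG (median 0.07). The 8 RING-between-RING genes had Rnf217 and Rnf31 higher and none lower (median 0.15).
The 8 genes of chromatin and DNA damage, which include Rnf2 of the Polycomb complex and the break-response ligases Rnf8 and Rnf168, had Rnf111 lower and none higher (median 0.06), although Rnf8 and Rnf20 were higher in acRIP than in input. No gene of the 5 testis-linked ones or of the 4 of the Rnf114 family was called against IgG (medians -0.01 and -0.32), and Rnf166 of the latter was higher in both pulldowns than in input (1.43 in acRIP and 1.92 in IgG). The 28 other tested Rnf genes had 2 higher and 4 lower than IgG (median -0.05). The groups of 4 to 13 genes are too small for their shares to be read against the 11.5% and 20.9% of all genes.

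**Figure D4:**
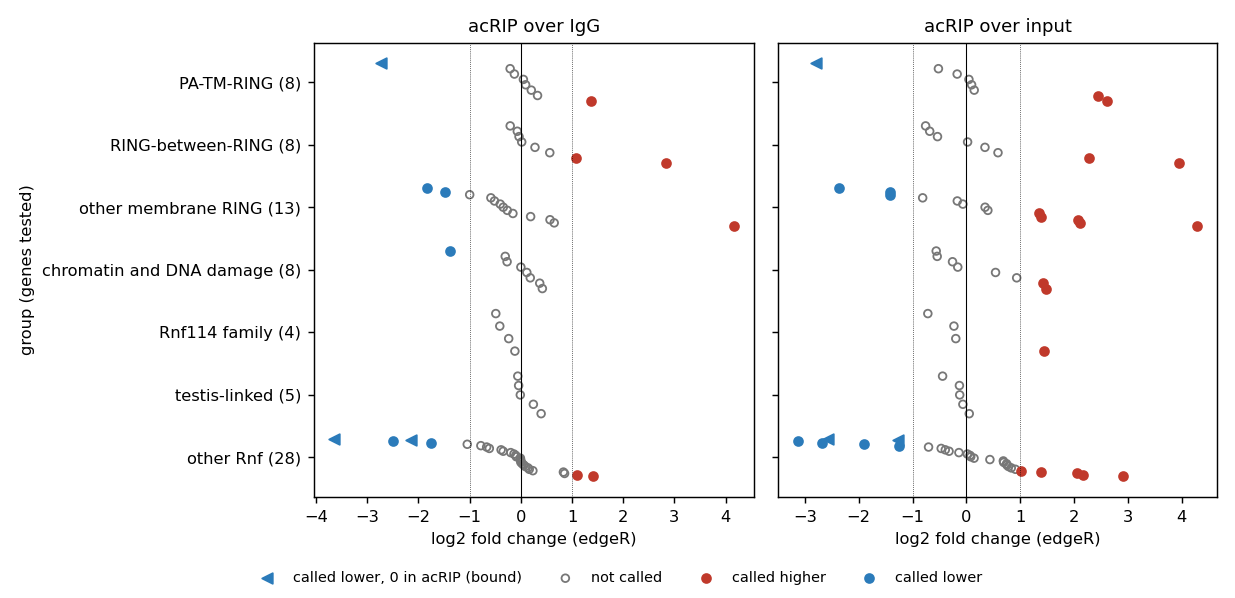
log2 fold change from edgeR of the 74 tested Rnf genes by role (y axis), for acRIP over IgG (left) and acRIP over input (right), with 1 point per gene, filled where called higher or lower, and triangles at the lower bound for genes with no counts in acRIP. Over IgG most genes of every role group lie within 2-fold of no change, with Rnf183 at 4.16 over IgG and 4.29 over input as the highest point.

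The filter on low counts removed 9 Rnf genes. Rnf207 and Rnf186 had no counts in any library, and Rnf181 had 1 count, in the second IgG library. Rnf39 was found in input alone, with 16, 2 and 14 counts, as was Rnf224 with 6, 0 and 0. Rnf225 had 22, 10 and 8 counts in input, 0, 1 and 2 in IgG, and none in acRIP.
Rnf122 had 6, 8 and 2 counts in input, 8, 4 and 10 in IgG and none in acRIP, and Rnf113a1 had 12, 2 and 14 in input, 0, 0 and 12 in IgG and 2, 0 and 0 in acRIP. Rnf150 was the exception in direction, with 8, 2 and 2 counts in input, 2, 9 and 8 in IgG, and 26, 16 and 8 in acRIP. After scaling for depth its acRIP libraries lay above all 6 control libraries, narrowly so in the third. These 9 genes did not enter the main test. With no filter on low counts, Rnf150 was called higher than input in acRIP, Rnf113a1, Rnf122, Rnf225 and Rnf39 lower than input in acRIP, Rnf122 also lower than IgG, and Rnf225 and Rnf39 lower in IgG than in input. Without the third acRIP library, its lowest, Rnf150 passed the filter through its remaining acRIP counts and was called above both controls. That call is therefore no independent support for a rise.

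The enzymes that act before the RING ligases were read from a list of ubiquitin, E1 and E2 genes (37 genes, 36 tested), which had 1 gene higher and 4 lower in acRIP than in both controls, both below the shares of all genes (7.88% and 17.0%). Ube2ql1, an E2 enzyme, was not detected in any input or IgG library and had 80, 90 and 78 counts in acRIP, at least 28.5-fold more than IgG and at least 41.7-fold more than input at the floor of 3 counts per library (14.3-fold and 20.9-fold at a floor of 6). This gene was the 1 called higher, and it passed the filter on low counts through its acRIP libraries alone, so its call is not independent of its entry to the test. Ube2v2, the partner subunit for K63 chains, and Ube2e1 were lower in acRIP than in IgG (-1.61 and -1.44; edgeR, adjusted p = 3.21e-08 and 1.48e-07). Ube2l6, an E2 for ISG15, was lower than input in acRIP (-2.25, adjusted p = 4.41e-05). Ube2q1 (3.22 for acRIP over input, 2.61 for IgG over input), Ube2z (2.21 for IgG over input) and Ube2r2 (2.06 for IgG over input) rose over input in the pulldowns.

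Among other RING ligases outside the Rnf symbols (39 genes, 38 tested), 3 were higher and 3 lower in acRIP than in both controls, beside 7.88% and 17.0% of all genes. The higher ones, named after their values were seen, were Xiap, an inhibitor of caspases (1.58 over IgG and 2.57 over input), Lnx2 (1.36 and 1.22) and Cop1 (1.02 and 2.998). Cop1 was also called higher in IgG than in input (1.975), whereas Xiap (0.99) and Lnx2 (-0.14) were not. Siah1b, a ligase related to the fly eye gene sina, had 282, 188 and 248 counts in input, 136, 194 and 124 in IgG, and none in acRIP, at least 48.1-fold lower than in IgG and at least 51.5-fold lower than in input. Lnx1, a ligase for the Notch regulator Numb, was at least 15.7-fold lower than in IgG and at least 8.44-fold lower than in input, by the floor of 3 counts in both genes, and Birc3, an inhibitor of apoptosis, was lower by both comparisons (-3.35 and -3.65). Siah1b, Lnx1 and Birc3 passed the filter on low counts through control libraries alone, so these calls are not independent of their entry to the test. Ring1, a Polycomb ligase like Rnf2, had the largest rise of this list for IgG over input (4.02), followed by Neurl1a (2.82) and Znrf2 (2.57).

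Transcript features of the 74 tested Rnf genes were set beside the fold changes. Their longest coding transcripts had a median of 3232.5 bases (2825 in the 15496 coding genes) with a median coding length of 1135.5 bases (1365) and a GC content of 49.6% (50.2%). Across the 74 genes, which share the same libraries and so are not independent, the Spearman correlation of acRIP over IgG was -0.11 with cytidine content, 0.10 with transcript length and 0.14 with the input count. For IgG over input it was 0.12 with cytidine content and -0.37 with the input count, beside 0.09 and -0.19 in all coding genes. Since the input count enters both sides of that last relation, it is given as a description.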

How the data were processed

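Testis poly(A) RNA of WT mice was sequenced as 3 input, 3 IgG and 3 acRIP libraries (paired-end Smart-seq2). The authors trimmed reads with Trim Galore 0.6.7, aligned them to mm10 with STAR 2.7.10a and deposited raw counts per gene from featureCounts 2.0.2, of uniquely mapped reads. Which annotation release was used, how strand was treated and if mates were counted singly or as pairs is not given in the sources used here. Gene names and types were matched through unversioned Ensembl IDs to GENCODE vM21 (55141 of 55401 IDs), and sequences came from GRCm38 and, for primers, from the study's supplement.

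Counts were fitted with edgeR 4.0.16 (R 4.3.3) by the quasi-likelihood test over all 9 libraries, with filterByExpr and TMM factors. Calls needed a Benjamini-Hochberg adjusted p under 0.05 over all genes tested and a fold change over 2. FPKM and log2 fold changes were computed here from the deposited counts and gene lengths. A gene with no counts in a group was given a floor of 3 counts per library. Depth ranged from 14647542 to 31340090 counts, and the floors cover counting error only.

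Alternatives were DESeq2 1.42.0, the tool named in the study's methods, other scaling factors and filters, fits of 6 libraries, a test against 2-fold, halved counts, limma 3.58.1 on log2(FPKM + 1) and log2(FPKM + 0.1), a replicate block and leaving out each library. The fit was tested on simulated data in which only well-counted genes were changed, so that test does not cover genes with few counts. Named were Rnf183, Rnf genes called against both controls, the 5 largest changes per direction of those called in 1 comparison, the 8 highest by input FPKM, those removed by the filter, those whose call was lost without 1 library, and up to 3 genes per comparison of each pathway list. Members and lists were chosen with earlier results of these data known. A planned search for the RING pattern in proteins was not done, because no protein table was used here.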

Additional observations from a re-analysis of the deposited data

How the results depend on the processing

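No call of an Rnf gene reversed direction under the alternatives run, and DESeq2 called the same Rnf genes as edgeR in each comparison and direction. On FPKM + 1, the Rnf genes higher numbered 3 for acRIP over IgG, 10 for acRIP over input and 8 for IgG over input, and those lower numbered 0 for acRIP below IgG, 0 below both controls and 3 below input. This rule cannot call a gene lower than a control in which its mean is under 1 FPKM. It also differs from the count test in scaling and p, and the cause of the other differences was not tested. All genes called higher than both controls then numbered 703, against 1774 by edgeR. A test against 2-fold left 12 genes higher and 1 lower for IgG over input, and 5 were lower both with no filter on low counts and on FPKM + 0.1, where Rnf225 and Rnf39 were added. Rnf208 was not tested under the stricter filter, in the fits of 6 libraries, or with halved counts.

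Leaving out 1 library at a time gave 6 genes higher and 8 to 10 lower for acRIP over IgG, 16 to 18 higher and 10 to 12 lower for acRIP over input, 17 to 20 higher and 2 to 3 lower for IgG over input, and 4 higher and 6 to 8 lower than both controls. Equal numbers do not mean the same genes, since in the fit without the third acRIP library Rnf213 was lost and Rnf150 entered. Samples with the same replicate number did not deviate together (correlations of -0.0066 to 0.035), and with the replicate block the counts higher and lower were 6 and 8, 16 and 10, and 18 and 3 in the same order, with 4 and 6 for both controls. With upper quartile factors the median of all genes for IgG over input was -0.11 in place of -0.01, and with no filter that for acRIP over input was -0.44 in place of -0.10 over 35699 genes. Depth limits the genes with no acRIP counts to lower bounds.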
